A study of Mus musculus with 4 samples.

Results

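The 10 genes described here, Plk1, Aurka, Aurkb, Bub1, Ccnb1, Ccna2, Cdc20, Cenpf, Kif11 and Top2a, encode kinases, cyclins and other proteins that carry cells into and through mitosis. They were taken by symbol from a deposited table of 54146 mouse genes, and each symbol matched 1 row. A low-count filter (edgeR's filterByExpr with a minimum count of 10) left 16789 genes for testing, and all 10 passed it. The genes lie on 8 chromosomes.

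The libraries are nascent RNA from mouse embryonic stem (ES) cells kept in medium with LIF and serum. The KO group is 2 libraries labelled Supt3 KO, and the WT group is 2 libraries labelled Supt3 WT. Supt3 encodes a core subunit of the coactivator complex SAGA, and the study asks how its mutation changes ongoing transcription. RNA made during a pulse of 4-thiouridine was purified in this assay (TT-seq), so a count reports recent transcription rather than the RNA pool, and RNA of a fission yeast, S. pombe, served as spike-in in both groups. The labels give neither the allele nor the number of clones, and do not say whether replicates are separate cultures. The p-values therefore speak only of the variation among these 4 libraries, which may be technical. Mouse counts per library were 13.1 and 18.4 M in KO and 13.5 and 19.4 M in WT (M, 1e6). Supt3 itself stood at 123 and 140 CPM in KO libraries, against 147 and 158 CPM in WT libraries (CPM, counts per 1e6 mouse counts after edgeR's TMM scaling, which sets the bulk of genes equal between libraries), with a log2 fold change of -0.22 ± 0.10 (SE) that missed the threshold in edgeR's quasi-likelihood test (adjusted p = 0.232). Since the position of the mutation is not known here, this level does not check the genotype. The ES cell markers Pou5f1, Nanog, Esrrb and Zfp42 were well counted in every library (641 counts or more for each of the 9 tested markers in KO, 554 or more in WT), while Sox2 had 0 counts in all 4 libraries. Sox2 lies inside Sox2ot on the same strand, and all genes so placed inside a well-counted gene had 0 counts.

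As background, entry into mitosis is driven by cyclin B1 (Ccnb1) bound to the kinase Cdk1, after cyclin A2 (Ccna2) has acted in S and G2 phase. Polo-like kinase 1 (Plk1) and Aurora A (Aurka) act at centrosomes and spindle poles, and Aurora B (Aurkb) and Bub1 act at centromeres and kinetochores. Cdc20 activates the anaphase-promoting complex, which marks cyclin B1 and other mitotic proteins for destruction. The genes are known as a co-regulated set that is transcribed mainly in late S, G2 and mitosis, through the CCAAT box bound by NF-Y and through the cell cycle genes homology region (CHR) bound by the MuvB complex together with B-Myb and FoxM1. In asynchronous cells, a smaller share of cells in these phases and less transcription per cell cannot be told apart in bulk libraries.

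RefSeq promoters (GRCm38.p6, 250 bases before to 50 after a gene's start) were held for 8 of the 10 genes, Aurkb and Ccna2 not being among them. They were searched on both strands for the CCAAT box, which reads ATTGG on the other strand. The CHR was searched as TTTGAA, which reads TTCAAA on the other strand, and as the variant TTCGAA, which is its own reverse complement. No match overlapped another. CCAAT was found in 8 of 8 promoters, against 37.4% of all 32851 promoters of that length, and at least 2 times in 6 of 8, against 11.7%. A CHR in either form was found in 7 of 8, against 19.2%, and together with CCAAT in 7 of 8, against 7.52%. These matches are a description of the letters in the window and not of bound sites. The stretches below are shown because they hold these elements. The Ccnb1 window held neither TTTGAA nor TTCGAA, and other forms of the CHR were not searched. Each stretch ends at the base before the start, with the CCAAT box and both searched forms of the CHR in capitals.
Plk1, chr7:122159285-122159434, plus strand: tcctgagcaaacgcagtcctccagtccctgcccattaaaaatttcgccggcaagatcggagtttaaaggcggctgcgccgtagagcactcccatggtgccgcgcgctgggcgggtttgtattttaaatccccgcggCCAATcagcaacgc
Aurka, chr2:172370571-172370720, minus strand: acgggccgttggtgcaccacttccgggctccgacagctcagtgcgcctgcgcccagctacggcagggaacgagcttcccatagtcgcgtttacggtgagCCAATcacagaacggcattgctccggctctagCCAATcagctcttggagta
Ccnb1, chr13:100786487-100786636, minus strand: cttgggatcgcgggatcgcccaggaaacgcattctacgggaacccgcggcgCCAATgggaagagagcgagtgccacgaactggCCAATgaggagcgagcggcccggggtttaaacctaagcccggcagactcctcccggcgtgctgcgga
Cdc20, chr4:118437344-118437493, minus strand: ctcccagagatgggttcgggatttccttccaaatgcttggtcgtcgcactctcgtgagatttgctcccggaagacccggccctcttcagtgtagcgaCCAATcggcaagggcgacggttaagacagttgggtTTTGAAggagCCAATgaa
Kif11, chr19:37376232-37376381, plus strand: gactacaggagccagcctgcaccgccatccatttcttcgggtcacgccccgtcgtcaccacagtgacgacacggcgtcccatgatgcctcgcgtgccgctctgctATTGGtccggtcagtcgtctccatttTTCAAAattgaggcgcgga
Top2a, chr11:99024190-99024439, minus strand: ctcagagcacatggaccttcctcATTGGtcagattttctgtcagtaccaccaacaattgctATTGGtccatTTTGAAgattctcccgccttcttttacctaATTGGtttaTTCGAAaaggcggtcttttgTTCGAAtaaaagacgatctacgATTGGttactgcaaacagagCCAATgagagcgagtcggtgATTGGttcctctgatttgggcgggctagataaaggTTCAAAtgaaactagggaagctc

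In 4 promoters the CHR letters lie just past the RefSeq start, so that a stretch before the start does not show them. They begin at position 31 in Plk1, 33 in Aurka, 15 in Bub1 and 3 in Cenpf, counting the start as 1. Short windows around the element are given for the kinases, with the element in capitals.
Plk1, chr7:122159455-122159480, plus strand: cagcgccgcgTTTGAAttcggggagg
Aurka, chr2:172370523-172370548, minus strand: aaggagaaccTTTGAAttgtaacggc
Bub1, chr2:127831830-127831855, minus strand: gcgcggggaaTTCGAAtcgccggcgg
The position of the box varied: CCAAT begins at -14 in Plk1, at -51 and -19 in Aurka, at -99 and -67 in Ccnb1, and 6 times between -227 and -58 in Top2a.

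Per kb of gene span, the cyclin genes Ccnb1 and Ccna2 and the anaphase regulator gene Cdc20 had the highest counts of the set, and Aurkb the lowest. The share of exons in each span was not taken into account, so this order need not be that of transcription. The level of Ccnb1 was 15.1 and 13.8 CPM per kb of gene span in KO libraries, against 15.6 and 15.8 CPM per kb in WT libraries. Ccna2 stood at 12.01 and 12.18 CPM per kb in KO and at 13.96 and 14.08 CPM per kb in WT, and Cdc20 at 15.4 and 11.5 CPM per kb in KO and at 13.7 and 11.2 CPM per kb in WT. Top2a, which encodes topoisomerase II alpha, followed at a mean of 8.06 CPM per kb in KO and 9.43 in WT, then Aurka, Plk1, Bub1, Kif11, Cenpf and Aurkb. Over all 4 libraries, the ranges of the neighbours Ccnb1 and Ccna2, Ccna2 and Cdc20, Aurka and Plk1, Plk1 and Bub1, and Kif11 and Cenpf overlapped, so those neighbours are not separated. The level of Aurkb was 3.24 and 2.97 CPM per kb in KO and 2.91 and 2.59 CPM per kb in WT, below every other gene of the set in every library. Set against 14158 tested protein-coding genes, whose median level was 0.903 CPM per kb, the 10 genes lay between the 79.2nd (Aurkb) and the 97.6th percentile (Ccnb1).

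**Figure D1:**
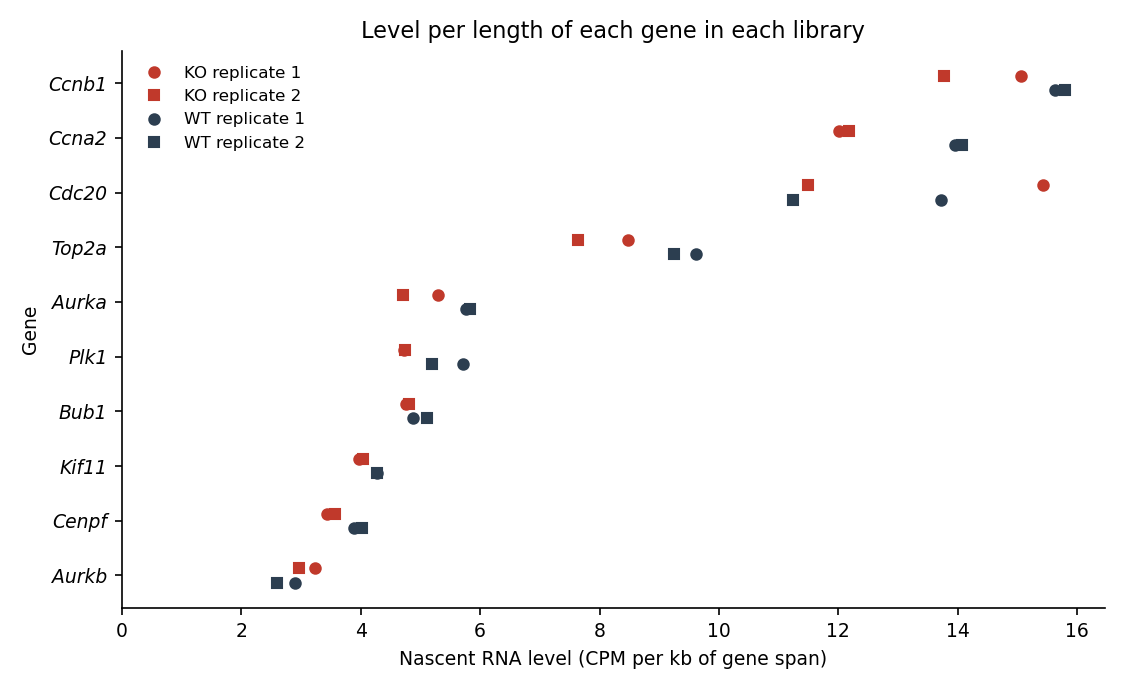
Nascent RNA level of each gene (CPM per kb of gene span, x axis) in the KO libraries (red) and WT libraries (dark), with circles for replicate 1 and squares for replicate 2. Ccnb1, Ccna2 and Cdc20 lie between 11.2 and 15.8 CPM per kb, and Aurkb lies between 2.59 and 3.24 CPM per kb.

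Between genotypes, none of the 10 genes passed the test. In edgeR's quasi-likelihood fit of all genes with Benjamini-Hochberg adjustment, 0 of the 10 were called at an adjusted p under 0.05, where 8.07% of all tested genes were called, and 1 of the 10 (Ccna2) had an unadjusted p under 0.05, where 22.9% of all tested genes did. DESeq2 and limma voom also called 0 of the 10, where they called 6.91% and 8.06% of all tested genes. The count was 0 as well with other scalings and filters of the edgeR fit, which called 8.32% of genes with RLE size factors, 7.09% with plain library totals, 8.34% with no low-count filter and 8.33% of genes at 1 CPM or more in every library. It was 0 without WT replicate 1 (8.19% of genes called), WT replicate 2 (4.78%), KO replicate 1 (10.4%) and KO replicate 2 (16.4%). The fold changes were small and mostly negative: 8 of the 10 were below 0, against 48.9% of all tested genes, and their median log2 fold change was -0.15, against 0.01 over all tested genes. In 8 of the 10 both KO libraries lay below both WT libraries, where 26.0% of all tested genes did so, and in 1 (Aurkb) both lay above, where 26.7% did so. The genes were chosen with results of these libraries known, so these counts and medians describe the set and are not a test of it.

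**Figure D2:**
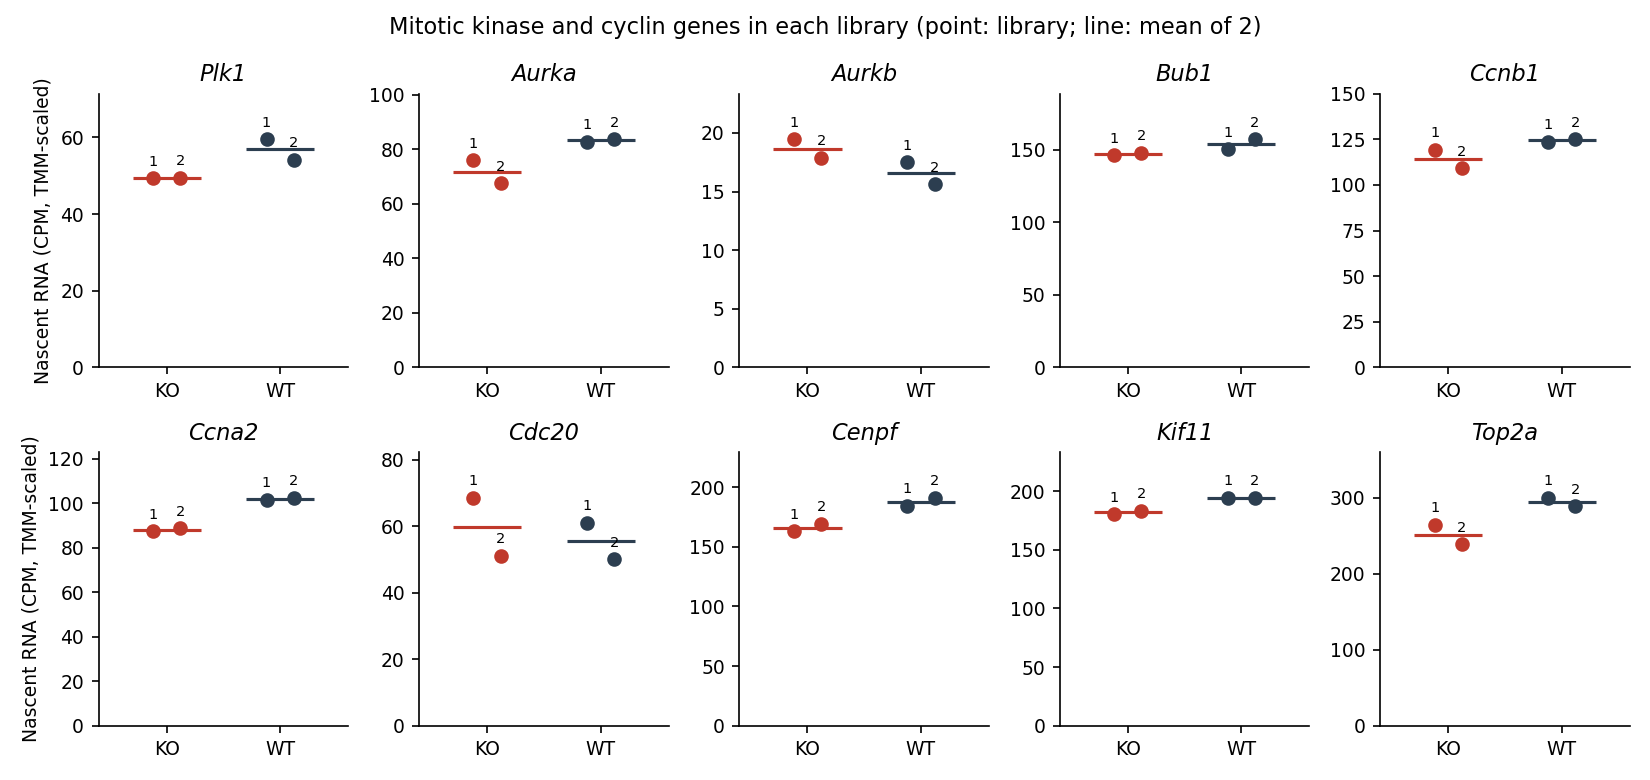
Nascent RNA of each gene in CPM (TMM-scaled, y axis from 0) in each KO and WT library, with the replicate number beside each point and a line at the mean of 2. In 8 genes both KO points lie below both WT points, in Aurkb they lie above, and in Cdc20 the genotypes overlap.

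Among the kinase genes, Plk1, Aurka and Bub1 were lower in both KO libraries, Bub1 only slightly, and Aurkb was higher. Plk1 stood at 49.3 and 49.4 CPM in KO libraries, against 59.6 and 54.2 CPM in WT libraries, with a log2 fold change of -0.20 ± 0.10 (SE, adjusted p = 0.251 in edgeR). The KO libraries were nearly equal and the WT libraries were 0.14 apart on the log2 scale. Aurka stood at 76.0 and 67.6 CPM in KO, against 82.7 and 83.7 CPM in WT, with a log2 fold change of -0.21 ± 0.09 (edgeR adjusted p = 0.219) and a 95% interval from -0.43 to 0.00. The WT libraries lay close together and KO replicate 2 was the lowest of the 4. Bub1, a kinase of the spindle checkpoint that recruits its partners to kinetochores, had 146 and 148 CPM in KO, against 150 and 157 CPM in WT. Its log2 fold change of -0.07 ± 0.09 (edgeR adjusted p = 0.722) had a 95% interval from -0.26 to 0.13.

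Aurkb, the catalytic subunit of the chromosomal passenger complex, was the least counted of the set, with 263 and 319 counts in KO and 239 and 299 counts in WT. This gave 19.5 and 17.9 CPM in KO libraries, against 17.5 and 15.6 CPM in WT libraries. The log2 fold change was 0.18 ± 0.14 (edgeR adjusted p = 0.497), with an interval from -0.13 to 0.48. Both KO libraries were above both WT libraries, by less than the gap within the WT pair in the case of KO replicate 2 and WT replicate 1. Counting error alone was 6.47% in the library with the fewest Aurkb counts, against 1.67% for Top2a.

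The cyclin genes were both lower in KO. Ccna2 had 87.5 and 88.7 CPM in KO libraries, against 102 and 103 CPM in WT libraries, and the libraries of a genotype differed by 0.02 or less on the log2 scale. Its log2 fold change of -0.21 ± 0.08 had an unadjusted p of 0.0329, an adjusted p of 0.173 in edgeR's quasi-likelihood test and a 95% interval from -0.40 to -0.02, the only interval of the 10 that did not reach 0. In percent this is a difference of -13.7% in KO, with an interval from -24.4% to -1.49%. Ccnb1 had 119 and 109 CPM in KO, against 124 and 125 CPM in WT, a log2 fold change of -0.13 ± 0.09 (edgeR adjusted p = 0.462). For Ccnb1 the KO libraries were 0.13 apart on the log2 scale, as large as the difference between the genotypes.

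Cdc20 had the widest spread between libraries of a genotype. It had 68.6 and 51.1 CPM in KO libraries, against 61.1 and 50.1 CPM in WT libraries. Replicate 1 was higher than replicate 2 in both genotypes, by 0.42 on the log2 scale in KO and 0.29 in WT, and the genotypes overlapped. The log2 fold change was 0.11 ± 0.15 (edgeR adjusted p = 0.738), and it turned negative without WT replicate 2 (-0.03) and without KO replicate 1 (-0.12).

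The remaining genes act on the spindle, the kinetochore and the chromosomes, and all were lower in both KO libraries. Top2a, which untangles sister chromatids, was the most counted gene of the set, at 265 and 239 CPM in KO libraries, against 300.4 and 289 CPM in WT libraries. Its log2 fold change of -0.23 ± 0.10 (edgeR adjusted p = 0.222, interval from -0.46 to 0.00) was the lowest of the 10. Cenpf, which encodes a large kinetochore protein, had 163 and 169 CPM in KO, against 184 and 191 CPM in WT (log2 fold change -0.18 ± 0.09, edgeR adjusted p = 0.282). Kif11, the gene of the motor that pushes spindle poles apart, had 180.3 and 184 CPM in KO, against 195 and 194 CPM in WT. Its log2 fold change was -0.10 ± 0.09 (edgeR adjusted p = 0.578), and libraries of the same genotype lay within 0.03 of each other on the log2 scale. Summed over the 10 genes the level was 1174 and 1123 CPM in KO libraries, against 1276 and 1263 CPM in WT libraries.

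With TMM scaling, and relative to the bulk of genes, the intervals give a range for these differences. Like the p-values, the intervals speak only of the variation among these 4 libraries, which may be technical. Over the 10 genes the lower ends of the 95% intervals lay between -0.46 (Top2a) and -0.13 (Aurkb), and the upper ends between -0.02 (Ccna2) and 0.48 (Aurkb). In percent, the lowest end was -27.1% for Top2a, and the highest was 39.8% for Aurkb.

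**Figure D3:**
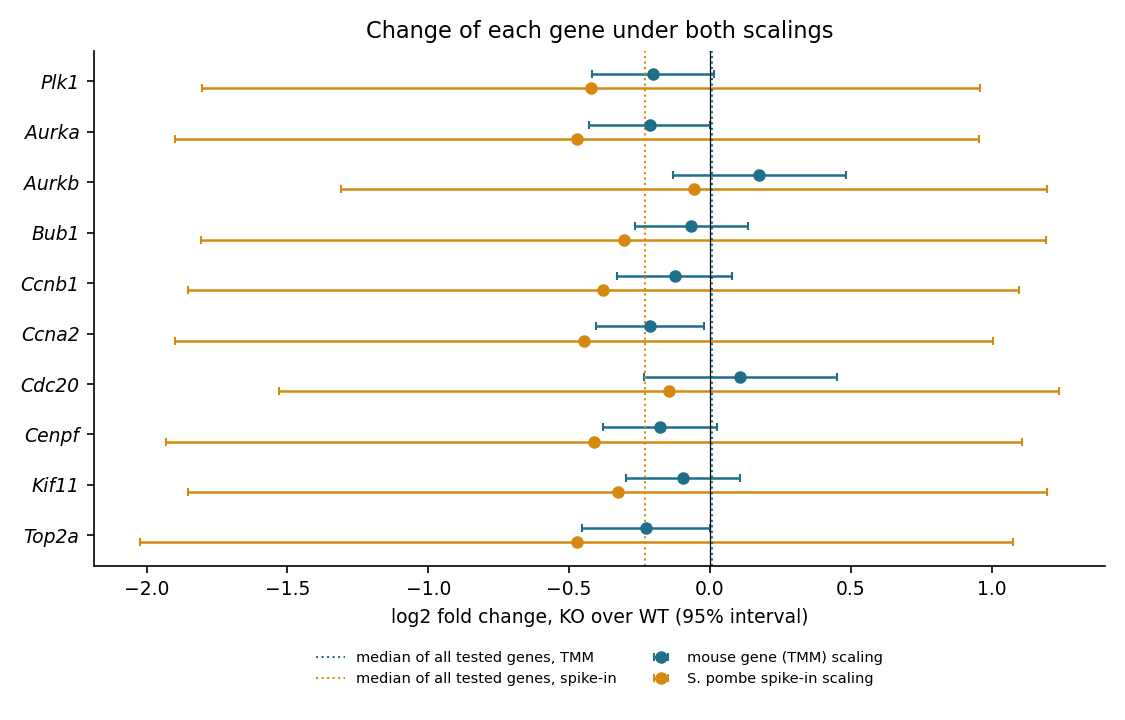
log2 fold change of KO over WT (x axis) with 95% intervals for each gene, with mouse gene (TMM) scaling in blue and S. pombe spike-in scaling in orange. Dotted lines are the medians of all tested genes, 0.01 and -0.23, and every spike-in interval spans 0.

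Against the spike-in, which asks about absolute output, all 10 genes were negative and none was called. S. pombe scaling moved the median of all tested genes to -0.23, and the median of the 10 genes to -0.40, so that the distance between them was -0.17, against -0.16 with TMM scaling. The sign of Aurkb turned under this scaling (-0.056), as did that of Cdc20 (-0.15). The spread between libraries was far wider here: the biological coefficient of variation over all genes was 0.363, against 0.0952 with TMM scaling, and the intervals of the 10 genes reached from -2.02 (Top2a) to 1.24 (Cdc20). Mouse counts per S. pombe count were 2.71 and 4.86 in KO replicates 1 and 2, and 3.25 and 5.60 in WT replicates 1 and 2. A term for replicates 1 and 2 was not fitted with this scaling. Of all tested genes 0.101% were called in the spike-in fit. In the authors' deposited table, whose fold changes are shrunken and rest on S. pombe size factors, the log2 fold change ran from -0.35 (Top2a) to -0.04 (Aurkb), with an adjusted p of 0.999 for each of the 10 genes.

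The libraries also differ in depth within each genotype, replicate 1 of each having fewer counted reads than replicate 2. Between the shallower libraries (KO over WT, log2) the differences were -0.27 for Plk1, -0.12 for Aurka, -0.22 for Ccna2, -0.05 for Ccnb1 and -0.18 for Top2a. Between the deeper libraries they were -0.13, -0.31, -0.21, -0.20 and -0.27 for the same genes in that order. In both pairs 8 of the 10 genes were negative and 2 (Aurkb and Cdc20) positive. With a term for these pairs in the edgeR fit, 4 of the 10 were called lower, where the same fit called 25.7% of all tested genes and 12.5% lower. These were Top2a (-0.23, adjusted p = 0.00652), Ccna2 (-0.21, adjusted p = 0.0191), Aurka (-0.22, adjusted p = 0.0219) and Cenpf (-0.18, adjusted p = 0.0447). The pairs come from the counts and not from the labels, and the term leaves 1 residual degree of freedom among samples, so these calls are weak evidence. The p-values of the fit with the term also treat the spread shared across genes as nearly known. They are therefore not on a par with those of the fit without it.

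**Figure D4:**
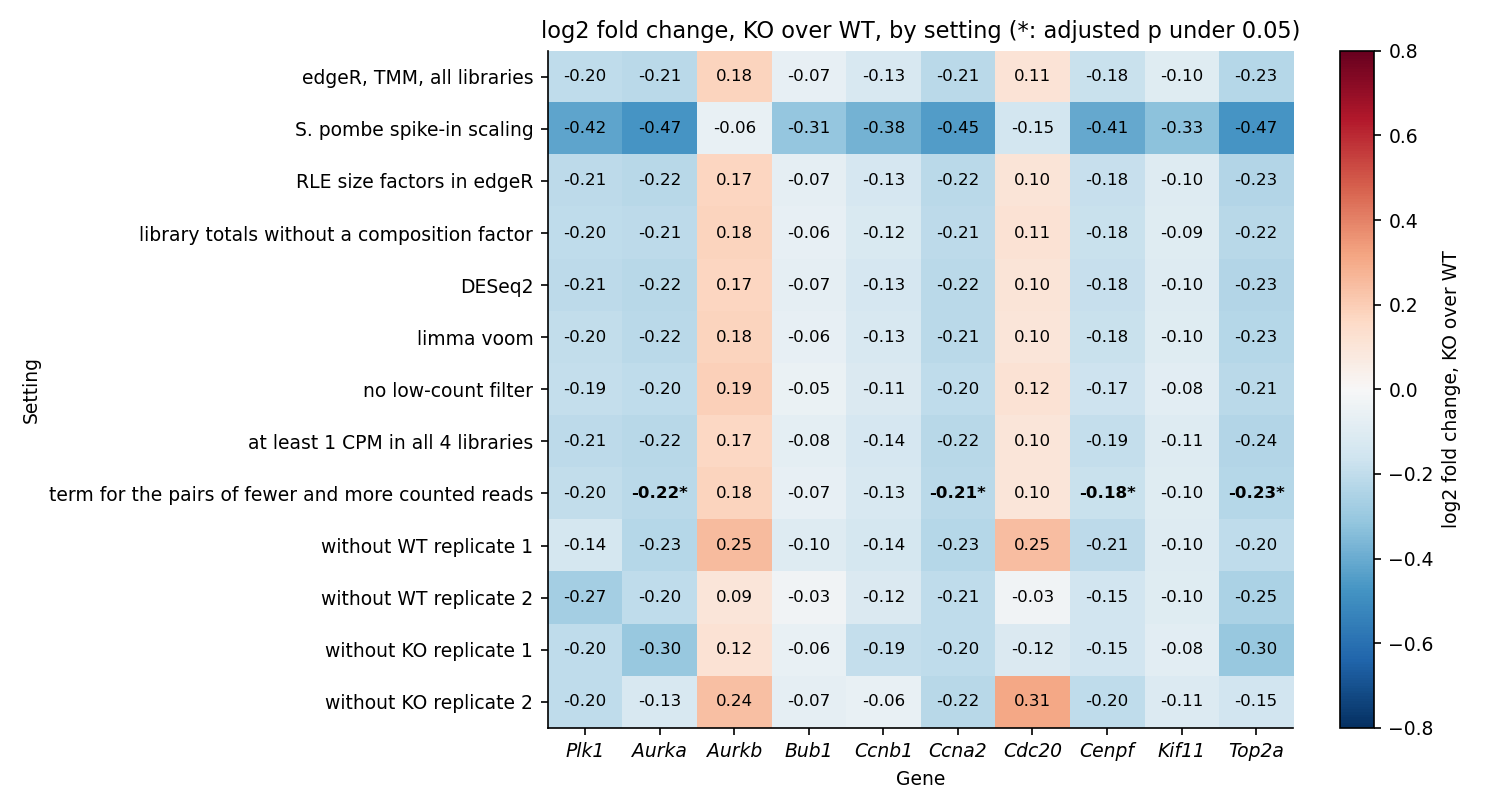
log2 fold change of KO over WT for each gene (columns) under each setting (rows), with an asterisk where the adjusted p is under 0.05. Asterisks stand only in the fit with a depth term, at Aurka, Ccna2, Cenpf and Top2a.

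The counts of the deposited table are resolved by strand. The long non-coding gene Gm15489 starts 38 bases from Plk1 on the other strand, and had 46 and 56 counts in KO libraries, against 64 and 105 counts in WT libraries (log2 fold change -0.65 ± 0.23, edgeR adjusted p = 0.128). Cstf1, which encodes an RNA cleavage factor, starts 146 bases from Aurka on the other strand and stood at 59.5 ± 2.41 CPM in KO, against 64.8 ± 1.55 CPM in WT (SD, n = 2 each). Its log2 fold change was -0.12 ± 0.09 (edgeR adjusted p = 0.477). Exosc9, an exosome subunit gene, overlaps the end of Ccna2 tail to tail by 863 bases, or 11.8% of its span, and had a log2 fold change of -0.04 ± 0.10 (edgeR adjusted p = 0.868). Elovl1, a fatty acid elongase gene, overlaps the end of Cdc20 by 53 bases (log2 fold change 0.61 ± 0.23, edgeR adjusted p = 0.159). Of the other genes that overlap the set, Gm44985 (9.74% of the span of Plk1) had 0 and 0 counts in KO and 0 and 1 in WT, and Gm37239 in Cenpf and the small nucleolar RNA genes Gm23451 and Gm26394 in Top2a had 0 counts in every library. A pseudogene named Ccnb1-ps had 0 and 0 counts in KO and 2 and 0 in WT. Within 5 Mb of each of the 10 genes, the median log2 fold change of the other tested genes lay between -0.03 (Aurka) and 0.04 (Cenpf).

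The wider cell cycle programme around the 10 genes was read from the same fit. Of 170 other cell cycle genes tested in 11 lists, edgeR called 5 higher and 3 lower, 4.71% against 8.07% of all tested genes, and their median log2 fold change was -0.05. An unadjusted p under 0.05 in edgeR was held by 25 of the 170, and by 22.9% of all tested genes. Of these lists, 0 calls in edgeR were held by the other mitotic kinases and partners of Aurora and Polo kinases (12 genes, median -0.11, 3 at an unadjusted p under 0.05), the anaphase-promoting complex (20, -0.03, 3), the spindle checkpoint (12, -0.05, 0), kinetochore and centromere (20, -0.06, 2), spindle and cytokinesis (20, -0.08, 2) and condensin with other chromosome proteins (10, -0.08, 1). The list of 19 tested G1/S and DNA replication genes also held 0 calls, with 0 at an unadjusted p under 0.05, and its median was 0.01. Negative values were held by 10 of 12 kinases and partners, 17 of 20 spindle genes, 8 of 10 chromosome genes, 9 of 12 checkpoint genes, 16 of 23 promoter regulators, 12 of 20 genes each in the anaphase-promoting complex and kinetochore lists, 7 of 13 entry switch genes, 7 of 14 other cyclins and kinases, 3 of 7 inhibitors and 8 of 19 replication genes. Over all tested genes the share was 48.9%. Lists of this size would hold few calls at the share of all tested genes, and the difference between lists was not tested.

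The genes with the highest CPM over the whole gene span, not divided by length, give the levels in these lists. Tpx2, the activator of Aurora A, stood at 156 ± 2.96 CPM in KO and 160 ± 2.25 CPM in WT (SD, n = 2 each), and Incenp, the scaffold of the chromosomal passenger complex, at 151 ± 10.9 CPM in KO and 158 ± 4.13 CPM in WT. Ect2, which starts cytokinesis, had 410 ± 19.3 CPM in KO and 464 ± 26.1 CPM in WT, and Kif20b, a motor of late mitosis, 262 ± 19.7 CPM in KO and 270.3 ± 10.8 CPM in WT. The condensin genes Smc2 and Smc4 had 309.9 ± 8.04 and 262 ± 11.2 CPM in KO, against 325 ± 3.95 and 271 ± 5.66 CPM in WT. Anapc1, the largest subunit of the anaphase-promoting complex, stood at 237 and 262 CPM in KO libraries and 243 and 263 CPM in WT libraries, and its subunit gene Cdc27 at 169 ± 11.7 CPM in KO and 159 ± 2.25 CPM in WT. None of these passed the test. The checkpoint genes Mad1l1 and Zwint had 568 ± 45.2 and 173 ± 1.29 CPM in KO, against 588 ± 29.7 and 159 ± 0.583 CPM in WT. In the kinetochore list, Hjurp, the chaperone of CENP-A, stood at 200.1 ± 21.0 CPM in KO and 194 ± 7.65 CPM in WT. Pola1, of DNA polymerase alpha, had 536 ± 82.1 CPM in KO and 640.5 ± 74.98 CPM in WT, and Dbf4, the activator of the Cdc7 kinase, 259 ± 25.2 CPM in KO and 289 ± 26.9 CPM in WT.

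The 8 called genes came from 4 of the 11 lists. Of 14 other cyclins and cyclin-dependent kinases, Ccnd2 (cyclin D2, 13.6 ± 2.26 CPM in KO, 8.16 ± 0.982 CPM in WT, log2 fold change 0.74 ± 0.18) and Cdk6, its kinase partner (0.38 ± 0.10), rose, and Ccnd3 (cyclin D3) fell by 0.44 ± 0.11 on the log2 scale. Their edgeR adjusted p-values were 0.0430, 0.0453 and 0.0387. Among 23 regulators of cell cycle promoters, Mybl2, which encodes B-Myb, fell to 244 ± 46.5 CPM in KO, against 372 ± 18.3 CPM in WT, with a log2 fold change of -0.60 ± 0.14 (edgeR adjusted p = 0.0291). Rb1, the retinoblastoma gene, rose to 169 ± 30.9 CPM in KO, against 103 ± 3.23 CPM in WT (0.71 ± 0.13, edgeR adjusted p = 0.0115). Of 13 genes of the mitotic entry switch, Ppp2r2a, a regulatory subunit of phosphatase PP2A (0.62 ± 0.11), and Bora, the activator of Aurora A toward Plk1 (0.51 ± 0.09), rose, with edgeR adjusted p-values of 0.0131 and 0.0113. Of 7 inhibitors of cyclin-dependent kinases, Cdkn1b, which encodes p27, fell by 0.56 ± 0.14 on the log2 scale (edgeR adjusted p = 0.0414).

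Rb1, Ppp2r2a and Bora lie on chromosome 14, where neighbours were raised as well: within 5 Mb, 62 of 69, 72 of 92 and 17 of 18 other tested genes had positive values. For Mybl2 on chromosome 2 this was 50 of 102, and for Ccnd2 on chromosome 6 it was 46 of 90. Without WT replicate 1 the calls of Ccnd3, Cdk6, Ppp2r2a, Bora and Cdkn1b were lost (highest adjusted p = 0.371), and without WT replicate 2 those of Ccnd2, Ccnd3, Cdk6, Ppp2r2a, Mybl2 and Cdkn1b (highest adjusted p = 0.388). Without KO replicate 1 those of Ccnd2 and Ccnd3 were lost (adjusted p = 0.0508 and 0.0645). With DESeq2 the calls of Ccnd3 and Cdkn1b were lost (adjusted p = 0.067 and 0.0729). In edgeR, plain library totals lost those of Ccnd2 and Cdkn1b (adjusted p = 0.0733 and 0.0587), the filter at 1 CPM that of Ccnd2 (0.0543) and RLE size factors that of Cdk6 (0.0554). Rb1 stayed called without each library in turn, and none of the 8 was called with spike-in scaling.

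**Figure D5:**
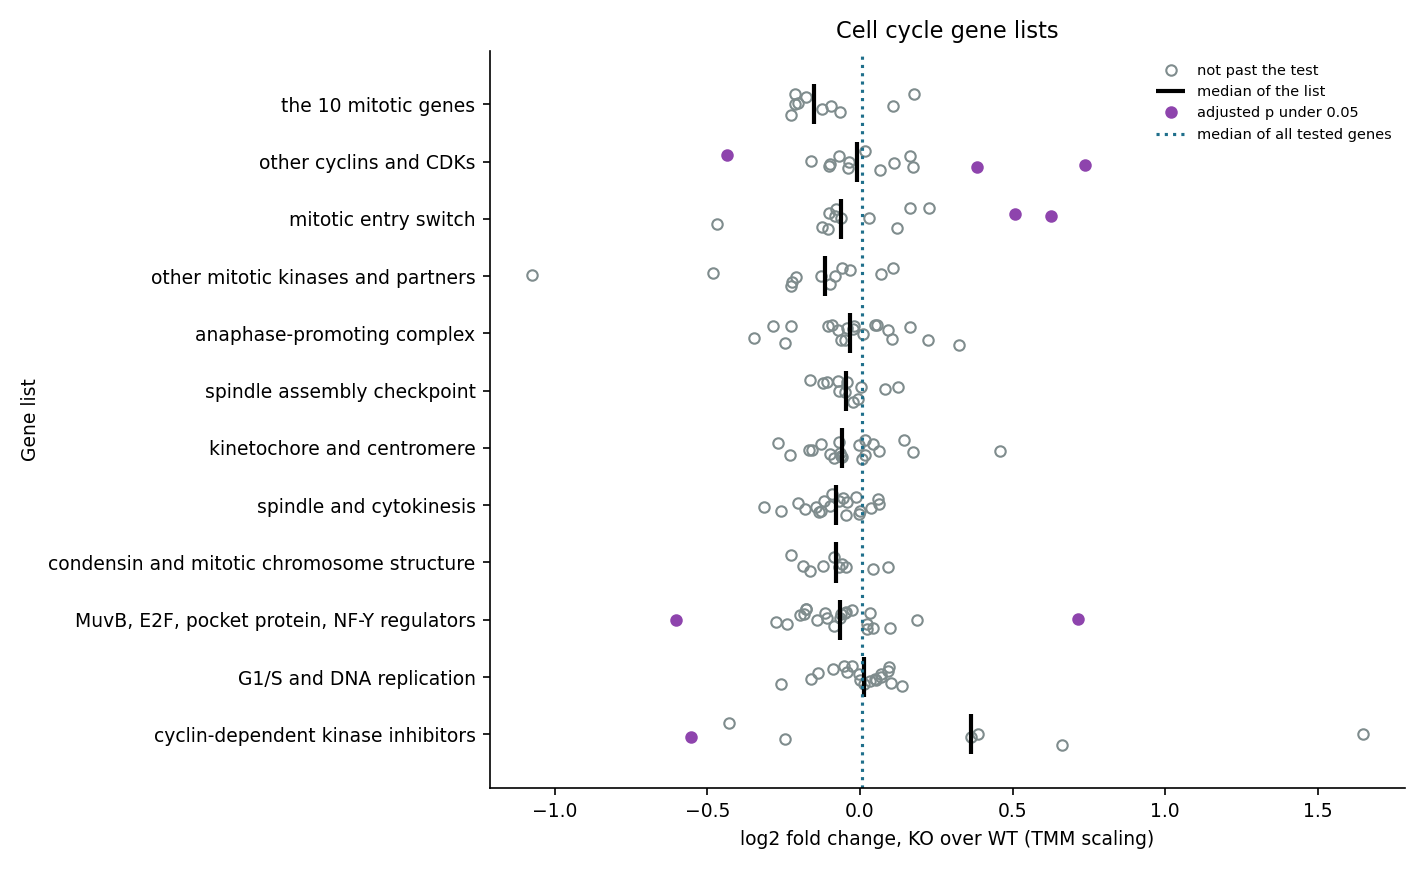
log2 fold change of KO over WT (x axis, TMM scaling) for every tested gene of the 10 mitotic genes and of 11 other cell cycle lists (rows), filled where the adjusted p is under 0.05, with a bar at each list's median and a dotted line at the median of all tested genes. The bar of the 10 mitotic genes lies at -0.15 and that of the replication list at 0.01.

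Markers of other cell types moved with genotype in the same libraries. Of 11 primitive endoderm markers 7 were higher and 0 lower in KO in edgeR, Sox17 (1.46 ± 0.24) and Col4a1 (1.44 ± 0.16) among them. The summed level of the 11 was 796 to 1049 CPM in KO, against 405 to 478 CPM in WT. Col4a1 alone made up 387 ± 81.0 CPM of this sum in KO and 143 ± 21.1 CPM in WT (SD, n = 2 each). Values were positive for 10 of the 11 and negative for Amn (4 and 13 counts in KO, 12 and 11 in WT). Of 9 tested trophoblast markers 5 were higher and 0 lower, Cdx2 (2.21 ± 0.52) and Krt8 (1.83 ± 0.19) among them, with a sum of 103 to 120.0 CPM in KO, against 69.4 to 77.8 CPM in WT. At an unadjusted p under 0.05 in edgeR, 7 of these 9 were higher and 1 lower. The only negative value (-0.43) was that of Tfap2c, with 382 and 711 counts in KO, against 655 and 854 in WT. Tfap2c was named after its values were seen. Cdx2 had few counts, 20 and 16 in KO, against 4 and 4 in WT, and DESeq2 gave it no adjusted p. The trophoblast marker Elf5 had 5 and 1 counts in KO and 1 and 1 in WT. The call of Cdx2 was lost when WT replicate 2 was left out (edgeR adjusted p = 0.225) and when KO replicate 1 was (edgeR adjusted p = 0.136). Of 9 tested ES cell markers Nanog was lower (-0.53 ± 0.13), and the sum was 1685 to 1892 CPM in KO, against 2285 to 2304 CPM in WT. The median log2 fold change of these 9 was -0.057, with 6 negative and 3 positive. Among the negative ones, Esrrb had 334 ± 130.5 CPM in KO and 577 ± 48.8 CPM in WT, and Zfp42 had 336 ± 91.4 CPM in KO and 516 ± 43.4 CPM in WT; neither passed the test, and both were named after their values were seen. Of 7 tested fibroblast markers, which feeder cells would carry, Thbs1 was higher (1.27 ± 0.20), and the sum was 95.7 to 101 CPM in KO, against 51.2 to 71.8 CPM in WT. Thbs1 made up 57.5 ± 1.57 CPM of the sum in KO and 24.2 ± 8.56 CPM in WT (SD, n = 2 each). Other fibroblast markers lay the other way, as with Thy1 (21 and 21 counts in KO, 36 and 40 in WT) and Col3a1 (4 and 8 counts in KO, 10 and 19 in WT), named after their values were seen. Of this list 2 genes were higher and 2 lower at an unadjusted p under 0.05, and Dcn, Lum and Postn had 3 counts or fewer in every library. The part of these cell type markers in the values of the mitotic genes was not tested.

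The profile of the set over the 4 libraries is shared by many other genes. Taking each gene's deviations from its own mean of log2(CPM + 0.5), the median profile of the 10 genes was matched most closely by Mrps14 (root mean square difference 0.00595), Acad9 (0.00829) and Slc25a15 (0.00879), among 11899 other protein-coding genes with a mean of at least 2 CPM. The 10 genes themselves differed from their median profile by 0.0278 to 0.201, with a median of 0.0540, and 547 of the other genes lay closer than that median. Over 4 libraries such a likeness is a description only.

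Gene span and promoter class were set beside the fold changes. The 2 genes with positive values, Cdc20 and Aurkb, are the shortest of the set, at 4.45 and 6.02 kb, while Ccna2 and Ccnb1, at 7.29 and 7.92 kb, were negative. Over all tested protein-coding genes the median log2 fold change was 0.04 for 1321 genes under 5 kb, Cdc20 among them. It was 0.02 for 1662 genes of 5 to 10 kb, which include Aurkb, Ccna2 and Ccnb1. For 3998 genes of 20 to 50 kb it was 0.03. For 1005 tested genes whose promoter held CCAAT together with either form of the CHR the median was -0.02, against 0.02 for 5807 genes with none of these letters.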

How the data were processed

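Nascent RNA (TT-seq) was measured in 4 libraries of mouse ES cells, 2 per genotype. Per the submitters' processing notes, tools included the aligner STAR (2.5.3), the counter HTSeq (0.6.1p1), DESeq2 (1.16.1), cutadapt (1.10) and bcl2fastq (2.20.0.422), with build mm10. The authors deposited unnormalized counts for each mouse and S. pombe gene. The authors' comparison table holds the same mouse counts (100% of 216584 values equal), normalized signal values (size-factor-scaled counts), log2 fold changes and p-values, per the file headers. All per-sample columns were mapped to samples.

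The sources used here do not state the counted feature or strand setting; the files show them in part. All 3104 genes that lie only inside a gene of over 2000 counts on the same strand had 0 counts, while 1194 of 2566 genes inside such a gene on the other strand had counts. Counts thus cover whole gene spans, introns included, by strand, and reads shared by genes of 1 strand were dropped. Levels were divided by gene span for this reason.

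Genes were kept by filterByExpr and tested with edgeR 4.0.16 (R 4.3.3, TMM, quasi-likelihood test), with p adjusted over all 16789 genes; the SE is the log2 fold change over the square root of F. Alternatives were DESeq2 1.42.0, limma voom 3.58.1, other filters and scalings, each library left out, and a depth term. Library depth was 13.1 to 19.4 M mouse counts, and S. pombe counts were 3.46 to 4.84 M. Counting errors cover counting only. The fits were also run on simulated data, but with changes larger than those of the 10 genes. That run therefore does not show how well changes of their size are found. Named were the 10 genes; up to 4 called genes per other cell cycle list, or the 2 of highest CPM where none was called (1 such gene is not reported here); up to 2 called markers per cell type; the 3 closest profiles; and genes overlapping or starting within 1000 bases of the 10, by position. The members and lists were chosen with earlier results of these data known.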

Additional observations from a re-analysis of the deposited data

How the results depend on the processing

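No paired analysis was possible because the labels give no pairing; the depth term below rests on pairs taken from the counts. The count of 0 calls among the 10 mitotic genes held in 11 of 12 alternatives, and the depth term, which pairs replicate 1 and replicate 2 of both genotypes by read depth, gave 4. The number of genes called over the whole table was 1355 in the edgeR fit with TMM scaling, against 17 with spike-in scaling (1 higher, 16 lower), 4307 with the depth term and 2460 when genes of low count were kept, and 818 to 2824 without each library in turn. Calls among other cell cycle genes were 8, against 0 with spike-in scaling and 28 with the depth term, and 3 to 14 without each library in turn. The median log2 fold change of the 10 genes was -0.15, against -0.40 with spike-in scaling, and -0.17 to -0.12 without each library in turn. The sign turned for Aurkb with spike-in scaling (-0.056), for Cdc20 with spike-in scaling (-0.15), without WT replicate 2 (-0.03) and without KO replicate 1 (-0.12), its values without each library running from -0.12 to 0.31. Exosc9 turned without WT replicate 2, its values without each library running from -0.095 to 0.019. None of these values was called. Spike-in scaling moved the median of all tested genes by -0.23, more than the values of Aurkb and Cdc20 with TMM scaling (0.18 and 0.11); for the turns without a library the cause was not tested. Mouse counts per S. pombe count were 2.71 and 4.86 in KO and 3.25 and 5.60 in WT. With 2 libraries per genotype, the SE of each gene draws on a spread between libraries that the fit shares across genes. Over all genes this biological coefficient of variation was 0.0952 with TMM scaling. Counting error was 1.67% to 6.47% for the 10 genes in the library with the fewest counts. For some of the 10 the gap within a genotype was no larger than counting error, as in the KO libraries of Plk1 (0.0024 on the log2 scale).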
